A study of Homo sapiens with 6 samples.

Results

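The genes of the insulin and insulin-like growth factor (IGF) receptors, of their insulin receptor substrate (IRS) adaptors and of the IGF-binding proteins (IGFBP) were followed in Hep3B cells, an established human hepatocellular carcinoma (HCC) line. They were chosen by name as 10 genes of the 29908 in the expression table: IGF1R, IGF2R, INSR, IRS1, IRS2, IGFBP1, IGFBP2, IGFBP3, IGFBP4 and IGFBP6. All 10 identifiers were found in the GENCODE annotation, release 29. Hep3B-KD cells were infected with a lentivirus that expresses a short hairpin RNA (shRNA) against DAGLA, the enzyme that makes the endocannabinoid 2-arachidonoylglycerol. Hep3B-Con cells were infected with a control lentivirus, named shControl in the sample titles and an empty vector in the series' design. Both were infected at a multiplicity of infection of 5, selected with puromycin and grown in medium with foetal bovine serum, which itself contains insulin-like growth factors. The paper's methods name no added insulin or IGF. The knockdown rests on 1 hairpin, so its effect cannot be told apart from any other property of that hairpin or of the selected cells. RNA of 3 Hep3B-Con and 3 Hep3B-KD samples, described as biological replicates, was sequenced.

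Insulin and the IGFs bind receptor tyrosine kinases at the cell surface. INSR and IGF1R are close relatives, and both phosphorylate IRS1 and IRS2, which recruit phosphoinositide 3-kinase (PI3K) and thereby activate AKT. IGF2R has no kinase. It carries mannose 6-phosphate-tagged enzymes to lysosomes and removes IGF2 from the cell surface. The IGFBPs hold IGFs outside the cell and are made in large part by the liver. In the adult liver INSR is the main receptor of hepatocytes, and IGFBP1 is a classical gene that insulin represses.

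Levels are given as FPKM, reads scaled by gene length and library size, so that genes can be compared with each other per length. The libraries held between 15861039 and 17572714 reads over the genes of the table. These totals and the reads per gene given below were recovered from the FPKM values. DAGLA had 9.42, 9.40 and 9.02 FPKM in Hep3B-Con replicates 1 to 3 and 4.62, 4.46 and 4.78 in Hep3B-KD (log2 change -0.99, limma adjusted p = 4.9e-06). All 8 hepatocyte markers examined were expressed. Their summed level was 2527 to 2577 FPKM in Hep3B-Con and 4053 to 4072 in Hep3B-KD, with 7 genes higher and FGB lower in every Hep3B-KD library. The summed level of 4 fibroblast markers was 3.33 to 3.61 FPKM in Hep3B-Con and 2.33 to 2.45 in Hep3B-KD, most of it PDGFRB, with COL3A1 and DCN at most 0.1 FPKM. The 3 endothelial markers summed to 0.194 to 0.217 FPKM in Hep3B-Con and 0.268 to 0.385 in Hep3B-KD, and the leukocyte marker PTPRC stayed at or below 0.0377 FPKM. The part of the higher hepatocyte markers in the results below was not tested.

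The genes that carry the pattern described here are IRS1 and IRS2, which moved in opposite directions, and IGFBP4, which changed most. The 250 bases before the start site of each are shown so that their surroundings can be compared, each read on the strand of its gene from RefSeq (GRCh38.p14). Capitals mark short motifs that were chosen after the sequences had been seen. GGAATG is the core bound by TEAD factors, TGTTTTG is the reverse complement of CAAAACA, the core of the insulin response element, and TATAAA is the TATA box.
IRS1, chr2:226799821-226800070, minus strand: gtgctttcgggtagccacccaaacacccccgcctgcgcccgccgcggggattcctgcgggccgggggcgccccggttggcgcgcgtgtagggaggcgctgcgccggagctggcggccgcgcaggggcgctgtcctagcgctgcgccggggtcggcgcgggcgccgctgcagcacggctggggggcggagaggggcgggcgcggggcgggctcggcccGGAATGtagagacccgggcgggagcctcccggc
IRS2, chr13:109786584-109786833, minus strand: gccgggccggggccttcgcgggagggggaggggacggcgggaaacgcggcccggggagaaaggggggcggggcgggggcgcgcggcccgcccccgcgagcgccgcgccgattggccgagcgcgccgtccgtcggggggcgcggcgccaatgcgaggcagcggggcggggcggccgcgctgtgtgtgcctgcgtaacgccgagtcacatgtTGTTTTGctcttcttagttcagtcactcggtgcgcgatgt
IGFBP4, chr17:40443200-40443449, plus strand: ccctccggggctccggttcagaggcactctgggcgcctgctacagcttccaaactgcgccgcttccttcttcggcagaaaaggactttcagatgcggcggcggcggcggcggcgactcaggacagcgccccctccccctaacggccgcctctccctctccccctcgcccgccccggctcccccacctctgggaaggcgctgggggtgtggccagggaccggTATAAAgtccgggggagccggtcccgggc

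The GGAATG of IRS1 begins 33 bases before the start site, and 11.9% of 35116 RefSeq windows of the same length held this motif on either strand. The CAAAACA of IRS2 lies on the opposite strand and begins 40 bases before the start, and 4.30% of windows held it. The TATA box of IGFBP4 begins 29 bases before the start, and 10.7% of windows held one. All 3 windows are rich in G and C, at 80.8% for IRS1, 76.4% for IRS2 and 71.6% for IGFBP4, beside a median of 58.0% over all windows. This is not particular to them. The windows of IGF1R, IGF2R, INSR and IGFBP3 held 76.0% to 81.2%, and those of IGFBP2 and IGFBP6 56.4% to 69.2%. Windows were found for 9 of the 10 genes, with 11 start sites in all. Of the other windows, that of IGF2R held the E-box CACGTG 3 times, beginning 132, 74 and 28 bases before the start, which 6.34% of windows held at least once. That of IGFBP6 held GGAATG and the forkhead core GTAAACA, which 2.98% of windows held. Those of IGF1R, INSR and IGFBP3 and all windows of IGFBP2 held none of these 5 motifs. The GC box GGGCGG was in 10 of the 11 windows and in 42.6% of all windows. These matches describe the letters of the windows, and no binding was measured.

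The hairpin itself is shown next, because a guide strand can also lower mRNAs that pair with its seed (bases 2 to 8 from its 5′ end). Its target of 19 bases lies in the coding sequence of DAGLA, chr11:61740504-61740522 on the plus strand of GRCh38, and no other gene in the table had a perfect match in its transcripts. The guide was taken as the exact reverse complement of this target. Its 5′ end in the cells was not measured, and another end would give another seed and other matches. Capitals mark the bases that pair with the seed so defined, the same bases in the 3′ untranslated regions (UTRs) of IGF1R and INSR.
DAGLA target: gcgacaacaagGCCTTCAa
IGF1R 3′ UTR: tttcatttttgGCCTTCAtcttagatgac
INSR 3′ UTR: gctctgagcctGCCTTCAagaacacctgt

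The IGF1R match lies at chr15:98962563-98962569 on the plus strand and the INSR match at chr19:7115717-7115723 on the minus strand (GRCh38). The 3′ UTRs of the other 8 genes held no match. That of DAGLA itself held 2. Of 11165 tested genes with a 3′ UTR, 13.3% held at least 1 match, a share that takes no account of length. The 3′ UTRs searched were 7088 bases long for IGF1R and 4801 for INSR, and 178 to 6420 for the other 8 genes. The 2 receptor genes with a match moved in opposite directions, IGF1R down and INSR up, as described next. Whether the match had a part in the level of either gene was not tested.

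Of the 10 genes, 7 passed the filter on low values, which required an average of 0.5 FPKM or more across all libraries. They were compared between the groups with limma on log2(FPKM + 0.1), with p-values adjusted over all 14147 genes tested. Log2 changes are Hep3B-KD over Hep3B-Con on this scale, on which low genes appear to change less than they did. At an adjusted p under 0.05, IRS1 and INSR were higher and IGF1R, IRS2, IGFBP3 and IGFBP4 lower in Hep3B-KD, and IGF2R did not pass. The comparison called a large part of the transcriptome: 60.3% of all genes tested passed at any fold, 36.3% higher and 24.0% lower. That 6 of 7 genes passed is little above this background for so few genes, and is not a result about them as a group. None of the 7 reached a fold change of 2 with an adjusted p under 0.05, as 8.83% of all genes tested did. The 3 Hep3B-KD values did not overlap the 3 Hep3B-Con values in any of the 7 genes, as in 67.2% of all genes tested. An exact permutation test of 3 libraries against 3 cannot give a two-sided p below 0.1, so no such test is given per gene. The median of all genes tested was 0.11 on the log2 scale rather than 0, and changes are also given against it where that matters. In these bulk samples, fewer cells of a kind and less RNA per cell cannot be told apart.

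**Figure D1:**
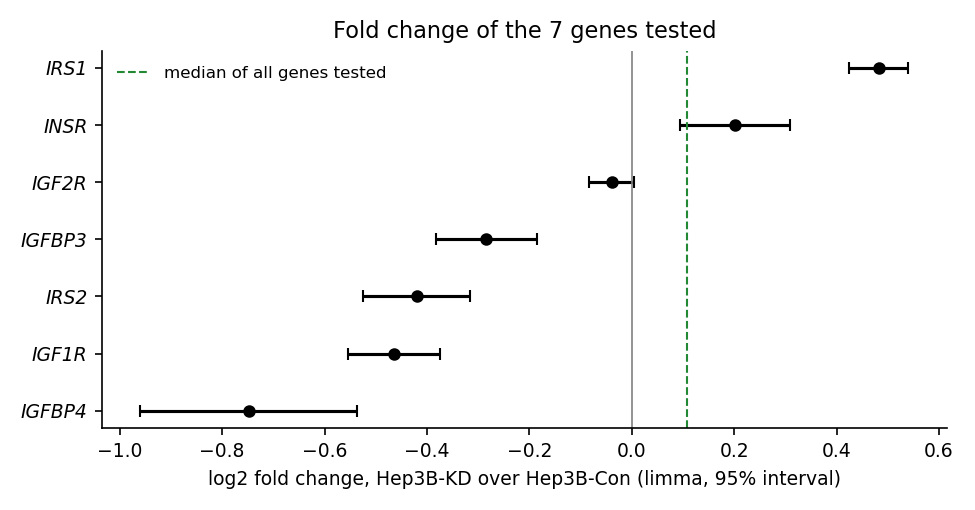
Log2 fold change of Hep3B-KD over Hep3B-Con (x axis) for the 7 genes that passed the filter (y axis), with 95% intervals from limma (n = 3 libraries per group). The dashed line marks 0.11, the median of all 14147 genes tested, the solid line marks 0, and 4 genes lie wholly below both lines.

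Among the receptors, IGF1R (ENSG00000140443, chromosome 15 from 98648539 to 98964530, plus strand), the receptor with the highest affinity for IGF1, was lower in Hep3B-KD. It had 10.7, 10.8 and 10.4 FPKM in Hep3B-Con replicates 1 to 3 and 7.91, 7.49 and 7.61 in Hep3B-KD. Every Hep3B-KD library lay well below every Hep3B-Con library. The mean went from 10.6 ± 0.231 to 7.67 ± 0.212 FPKM (SD, n = 3 each) at a log2 change of -0.46 (SE 0.0377, limma adjusted p = 6.1e-05). The level was 1.38-fold lower, and between 1678 and 2619 reads per library lay behind it.

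INSR (ENSG00000171105, chromosome 19 from 7112255 to 7294034, minus strand) encodes the insulin receptor. It had 9.97, 9.46 and 9.32 FPKM in Hep3B-Con and 11.5, 10.7 and 10.9 in Hep3B-KD, so that the groups did not overlap but lay close together. The mean went from 9.58 ± 0.343 to 11.04 ± 0.451 FPKM (SD, n = 3 each) at a log2 change of 0.20 (SE 0.0450, limma adjusted p = 0.0073). INSR stood only 0.09 above the median of all genes. When the libraries were centred on their median log ratios its log2 change was 0.10 and it no longer passed (adjusted p = 0.0987, limma).

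IGF2R (ENSG00000197081, chromosome 6 from 159969099 to 160113507, plus strand), the clearance receptor, was the most abundant of the 10 genes in every library. It had 74.9, 76.6 and 75.9 FPKM in Hep3B-Con and 74.6, 73.1 and 73.6 in Hep3B-KD, on 20951 to 23761 reads per library. The log2 fold change was -0.04, with a 95% interval from -0.08 to 0.00 (adjusted p = 0.108, limma), and its sign depended on the scaling: it was -0.14 with median centring and 0.08 with quantile normalization. It passed in both of these settings. In no setting tried did it change by more than 0.14 on the log2 scale, whereas IGF1R changed by no less than 0.42. Its FPKM was 7.01 to 7.32 times that of IGF1R in Hep3B-Con and 9.44 to 9.76 times in Hep3B-KD, a ratio of values within 1 library that does not depend on the scale of that library.

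IRS1 and IRS2 are docking proteins that carry the signal of both receptors to PI3K. IRS1 (ENSG00000169047, chromosome 2 from 226731317 to 226799759, minus strand) had 14.6, 14.6 and 14.8 FPKM in Hep3B-Con and 20.5, 20.7 and 20.6 in Hep3B-KD. The replicates of each group were nearly the same and the groups lay far apart. The mean went from 14.7 ± 0.0899 to 20.6 ± 0.0893 FPKM (SD, n = 3 each) at a log2 change of 0.48 (SE 0.0242, limma adjusted p = 7.8e-06), which is 0.37 above the median of all genes.

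IRS2 (ENSG00000185950, chromosome 13 from 109752698 to 109786568, minus strand), whose transcription insulin is known to repress in liver, had 17.6, 16.4 and 16.6 FPKM in Hep3B-Con. It had 12.2, 13.2 and 12.3 FPKM in Hep3B-KD, all below the lowest Hep3B-Con value. The mean went from 16.8 ± 0.647 to 12.6 ± 0.516 FPKM (SD, n = 3 each) at a log2 change of -0.42 (SE 0.0439, limma adjusted p = 2.0e-04). An antisense gene, AL162497.1, overlaps 1.41% of the exon bases of IRS2 and had a mean of at most 0.158 FPKM in either group. It was the only exon overlap found among the 10 genes.

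In FPKM, the opposite changes exchanged the order of both pairs. IRS2 had the higher FPKM in all 3 Hep3B-Con libraries, at 1.20, 1.12 and 1.12 times that of IRS1. In Hep3B-KD it was at 0.596, 0.637 and 0.600 times, so that IRS1 had the higher FPKM in all 3. The order in Hep3B-Con rests on the exon lengths used, 8138 bases for IRS2 and 9953 for IRS1. IRS1 had more reads there, 2560, 2533 and 2451 against 2515, 2317 and 2246 for IRS2. The change of the ratio between the groups does not depend on these lengths. The summed FPKM of IRS1 and IRS2 was 31.0 to 32.2 in Hep3B-Con and 32.7 to 33.8 in Hep3B-KD, without overlap. Its mean went from 31.5 to 33.1 FPKM, a far smaller difference than that of either gene.

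The receptor kinases exchanged order in FPKM as well, and their sum fell where that of the IRS pair rose. IGF1R was at 1.07, 1.14 and 1.11 times the FPKM of INSR in Hep3B-Con and at 0.685, 0.701 and 0.700 times in Hep3B-KD. Their order likewise rests on the exon lengths used, 13941 bases for IGF1R and 10451 for INSR. The summed FPKM of IGF1R and INSR was 19.7 to 20.7 in Hep3B-Con and 18.2 to 19.5 in Hep3B-KD, without overlap. Its mean went from 20.2 to 18.7 FPKM, a fall about as large as the rise of INSR. These ratios and sums were read from the same values as the tests of the single genes and were not tested on their own.

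**Figure D2:**
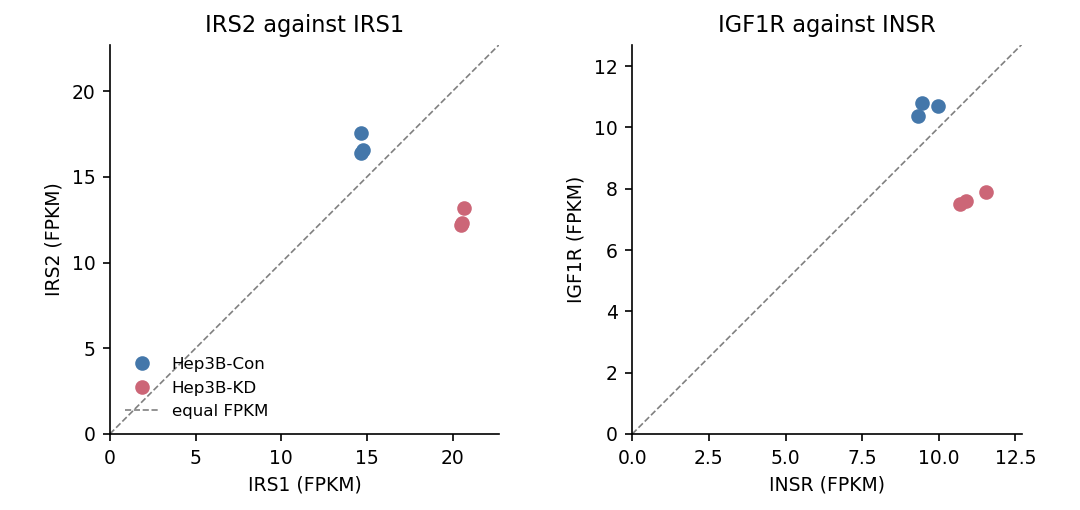
FPKM of IRS2 against IRS1 (left) and of IGF1R against INSR (right), with 1 point per library and both axes from 0. All 3 Hep3B-Con points lie above the dashed line of equal FPKM and all 3 Hep3B-KD points below it, in both panels.

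Of the binding proteins, IGFBP3 (ENSG00000146674, chromosome 7 from 45912245 to 45921874, minus strand) is the main carrier of IGFs in blood, where it forms a complex with the acid-labile subunit. It had 22.3, 21.7 and 22.2 FPKM in Hep3B-Con and 17.1, 18.9 and 18.3 in Hep3B-KD. All Hep3B-KD values were lower, and they were more spread than those of Hep3B-Con. The mean went from 22.1 ± 0.276 to 18.1 ± 0.925 FPKM (SD, n = 3 each) at a log2 change of -0.28 (SE 0.0410, limma adjusted p = 9.7e-04).

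IGFBP4 (ENSG00000141753, chromosome 17 from 40443461 to 40457731, plus strand), an inhibitor of IGF action that is cut by the protease PAPPA, showed the largest change among the 7 genes tested. It had 3.10, 3.22 and 2.89 FPKM in Hep3B-Con and 1.98, 1.67 and 1.73 in Hep3B-KD. Behind these values lay 106 to 123 reads per library in Hep3B-Con and 59 to 69 in Hep3B-KD, so that its interval was the widest of the 7. The mean went from 3.07 ± 0.163 to 1.79 ± 0.164 FPKM (SD, n = 3 each) at a log2 change of -0.75 (95% interval -0.96 to -0.54, limma adjusted p = 3.6e-04), a level 1.72-fold lower.

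The other 3 binding proteins were under the filter and were not tested. IGFBP1 (ENSG00000146678, chromosome 7 from 45888357 to 45893668, plus strand), the neighbour of IGFBP3, had 0.413, 0.626 and 0.691 FPKM in Hep3B-Con and 0.534, 0.414 and 0.219 in Hep3B-KD. Behind them lay 49 reads in all Hep3B-Con libraries and 31 in all Hep3B-KD libraries, a ratio of 0.673 after scaling to library size with an exact 95% interval from 0.415 to 1.08. The groups overlapped, and a fall was not detectable at this depth. IGFBP2 (ENSG00000115457, chromosome 2 from 216632828 to 216664436, plus strand) had 0.322, 0.302 and 0.202 FPKM in Hep3B-Con and 0.185, 0.405 and 0.0885 in Hep3B-KD. The highest and the lowest values of IGFBP2 were both Hep3B-KD libraries, and the ratio of pooled reads, 52 against 68, was 0.813 (0.556 to 1.18). IGFBP6 (ENSG00000167779, chromosome 12 from 53097436 to 53102345, plus strand), which prefers IGF2 over IGF1, had 19 reads in each group, a ratio of 1.06 (0.533 to 2.12). Its values were 0.169, 0.214 and 0.446 FPKM in Hep3B-Con and 0.234, 0.324 and 0.313 in Hep3B-KD, again overlapping. The intervals cover counting error only.

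Among these 5 binding proteins, IGFBP3 made up 83.3% to 84.7% of the summed FPKM in Hep3B-Con and 85.4% to 88.6% in Hep3B-KD. IGFBP4 made up 10.97% to 12.3% in Hep3B-Con and 7.68% to 9.87% in Hep3B-KD. The sum itself was 26.1 to 26.4 FPKM in Hep3B-Con and 20.03 to 21.7 in Hep3B-KD, without overlap. These shares are of the 5 genes only. IGFBP7, a low-affinity relative outside them, had 13.0 ± 0.6705 FPKM in Hep3B-Con and 10.7 ± 0.949 in Hep3B-KD (SD, n = 3 each), above IGFBP4 in both groups.

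**Figure D3:**
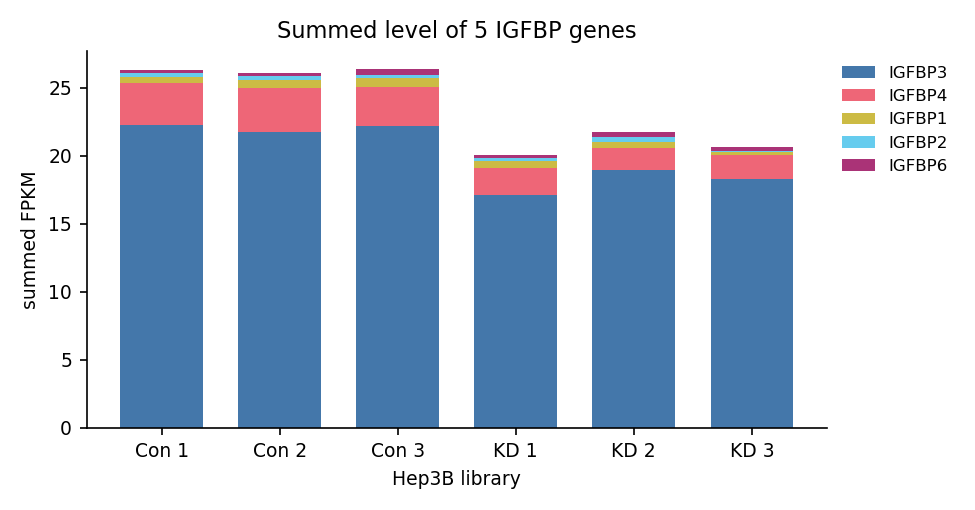
Summed FPKM of 5 IGFBP genes (y axis, from 0) in each of the 6 libraries (x axis), with each bar divided by gene. Hep3B-Con bars reach 26.1 to 26.4 FPKM and Hep3B-KD bars 20.03 to 21.7, and IGFBP3 fills most of every bar.

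Ordered by mean FPKM, Hep3B-Con ran IGF2R, IGFBP3, IRS2, IRS1, IGF1R, INSR, IGFBP4, IGFBP1, IGFBP6, IGFBP2. Hep3B-KD ran IGF2R, IRS1, IGFBP3, IRS2, INSR, IGF1R, IGFBP4, IGFBP1, IGFBP6, IGFBP2. In both groups the 7 leading neighbouring pairs did not overlap over the 3 libraries. IGFBP1 and IGFBP6, and IGFBP6 and IGFBP2, did not differ beyond their spread in either group. IRS1 passed both IRS2 and IGFBP3 in Hep3B-KD.

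**Figure D4:**
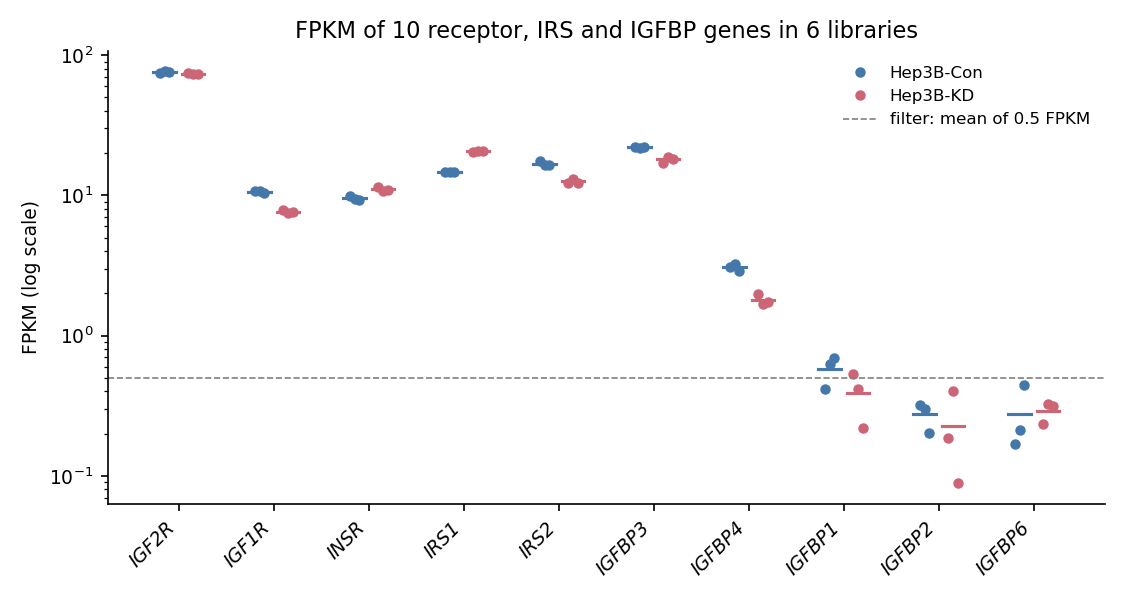
FPKM (log scale) of the 10 genes in 3 Hep3B-Con and 3 Hep3B-KD libraries, with 1 point per library and a bar at the group mean. IGF2R lies at 73.1 to 76.6 FPKM in all 6 libraries, and IGFBP1 lies around the filter of 0.5 FPKM and IGFBP2 and IGFBP6 below it, with overlapping groups.

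Other genes of the pathway were described with a selection of 44 genes in 7 lists, made with earlier results of these data known, of which 39 had a row and 29 passed the filter. Of the 29, 16 were higher and 7 lower in Hep3B-KD at an adjusted p under 0.05 (limma), beside 36.3% higher and 24.0% lower among all genes tested. A fold change of 2 was also reached by 10 of them, beside 8.83% of all genes tested. Their median log2 fold change was 0.35 and that of all genes tested 0.11. Because of how the genes were chosen, these counts and medians describe the selection only, and with 60.3% of all genes tested called, the counts for single lists below say little about a list. The 7 genes of the receptor, IRS and binding protein group that were tested had a median of -0.28. INS, IGFBP5, STC1, IRS4 and PCK1 were not analysed here.

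Among the ligands and other family genes, IGF1 was at or below 0.0222 FPKM in every library. IGF2, the fetal growth factor of liver, was higher, with 0.844 to 1.42 FPKM in Hep3B-Con and 2.15 to 3.51 in Hep3B-KD (log2 change 1.31, limma adjusted p = 0.0033). Its row shares 73.7% of its exon bases with a further entry of the same name and 20.9% with INS-IGF2. IGF2-AS, which overlaps 4.77% of them on the other strand, went from a mean of 1.85 to 3.34 FPKM. Both the level of IGF2 and its change are therefore uncertain. IGFALS, the acid-labile subunit that binds IGFBP3, went from 1.27 ± 0.336 to 3.42 ± 0.197 FPKM (SD, n = 3 each) at a log2 change of 1.39 (limma adjusted p = 7.2e-04). IGFBP7 was lower, at -0.27 (adjusted p = 0.0137, limma), but 14.0% of its exon bases overlap POLR2B on the other strand. The groups of IGFBPL1 overlapped (log2 change 0.36, limma adjusted p = 0.570). Of the binding protein proteases, PAPPA and PAPPA2 had at most 5 reads per group. STC2, stanniocalcin 2, which inhibits PAPPA, fell from 17.3 ± 0.593 to 5.52 ± 0.255 FPKM (SD, n = 3 each) at a log2 change of -1.63 (limma adjusted p = 9.1e-07). HTRA1 was under the filter with overlapping groups.

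Of 4 adaptors tested, 1 rose and 1 fell. SHC1, which links the receptors to the RAS pathway, fell from 83.5 ± 1.12 to 34.0 ± 1.22 FPKM (SD, n = 3 each) at a log2 change of -1.29 (limma adjusted p = 4.0e-07). In Hep3B-Con it was the most abundant of the adaptor genes examined, at a level above those of IRS1 and IRS2 together. In Hep3B-KD it came to 32.7 to 35.2 FPKM beside 32.7 to 33.8 for that sum. There it lay below GRB2, which had 43.1 to 46.5 FPKM. PYGO2 overlaps 7.72% of the exon bases of SHC1 on the same strand. SH2B1, which binds INSR and supports its signal, rose by 0.68 on the log2 scale (adjusted p = 2.0e-04, limma). GRB2 had overlapping groups and a log2 change of -0.01 (limma adjusted p = 0.822), which turned to 0.11 and passed the threshold under quantile normalization and was -0.11 and passed with median centring. GAB1 was at 0.12 (adjusted p = 0.281, limma), and at -0.11 under quantile normalization.

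Of 5 feedback inhibitors tested, 3 were higher and 2 lower, where 60.3% of all genes tested passed. GRB14, which binds the activated receptors and blocks their kinase, rose from 7.57 ± 0.452 to 18.1 ± 1.14 FPKM (SD, n = 3 each) at a log2 change of 1.24 (limma adjusted p = 7.5e-06). Its relative GRB10 rose by 0.63 (adjusted p = 3.9e-05, limma) and PTPN1, a phosphatase of INSR, by 0.35 (adjusted p = 6.0e-04, limma). PTPRF, a receptor-type phosphatase, fell by 0.43 (adjusted p = 7.4e-06, limma) and SOCS2 by 0.81 (adjusted p = 9.3e-04, limma). SOCS1 and SOCS3 were under the filter. All 3 IGF2 mRNA-binding proteins, fetal RNA-binding proteins that also bind many other mRNAs, were higher, IGF2BP1 by 0.44, IGF2BP2 by 0.23 and IGF2BP3 by 0.38 on the log2 scale, with adjusted p from 3.1e-06 to 1.6e-04 (limma). Against the median of all genes tested these 3 stood only 0.34, 0.12 and 0.27 higher, in the same order. MALSU1 overlaps 17.9% of the exon bases of IGF2BP3 on the other strand.

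Of 7 genes of PI3K and AKT tested, 4 were higher and 1 lower, a share of 71.4% called that is close to the 60.3% of all genes tested. The regulatory subunits PIK3R1 and PIK3R3, through which PI3K docks on IRS proteins, rose by 1.09 and 1.29 on the log2 scale (adjusted p = 3.0e-05 and 2.1e-05, limma). PIK3R3 shares 17.4% of its exon bases with AL358075.4 on the same strand. The catalytic subunit PIK3CA rose by 1.01 (adjusted p = 1.0e-04, limma), with 35.8% of its exon bases shared with KCNMB3 on the other strand. PDPK1, the kinase that activates AKT, rose by 0.39 (adjusted p = 2.3e-04, limma), with 16.8% of its exon bases shared with AC141586.3 on the other strand. AKT2, the form most tied to insulin action, fell by 0.33 (adjusted p = 6.4e-04, limma), from 12.5 ± 0.590 to 9.92 ± 0.230 FPKM (SD, n = 3 each). AKT1 was at 0.03 (adjusted p = 0.786, limma), a sign that turned with median centring and quantile normalization, and PIK3CB at -0.01 (adjusted p = 0.926, limma), whose sign turned when libraries were rescaled to the same sum. PIK3R2, listed at or near 0, shares 87.2% of its exon bases with another gene and is uncertain.

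The FOXO factors, which insulin excludes from the nucleus through AKT, and genes tied to them held 5 tested genes, of which 3 were higher and 1 lower. FOXO3 rose by 0.33 (adjusted p = 4.3e-04, limma) and FOXO4 by 0.52 (adjusted p = 0.0012, limma). FOXO1 was at 0.02 (adjusted p = 0.771, limma), and its sign turned with median centring and quantile normalization. PPARGC1A, a coactivator of gluconeogenesis, rose from 0.512 ± 0.103 to 1.12 ± 0.0460 FPKM (SD, n = 3 each) at a log2 change of 1.01 (limma adjusted p = 0.0032). PCK2, the mitochondrial phosphoenolpyruvate carboxykinase, fell by 1.46 (adjusted p = 3.4e-07, limma). It is known as a target of the amino acid stress response more than of insulin. G6PC was under the filter, with 1 read over the Hep3B-Con libraries and 5 over the Hep3B-KD libraries. Only mRNA was measured, so none of these values speaks of phosphorylation.

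**Figure D5:**
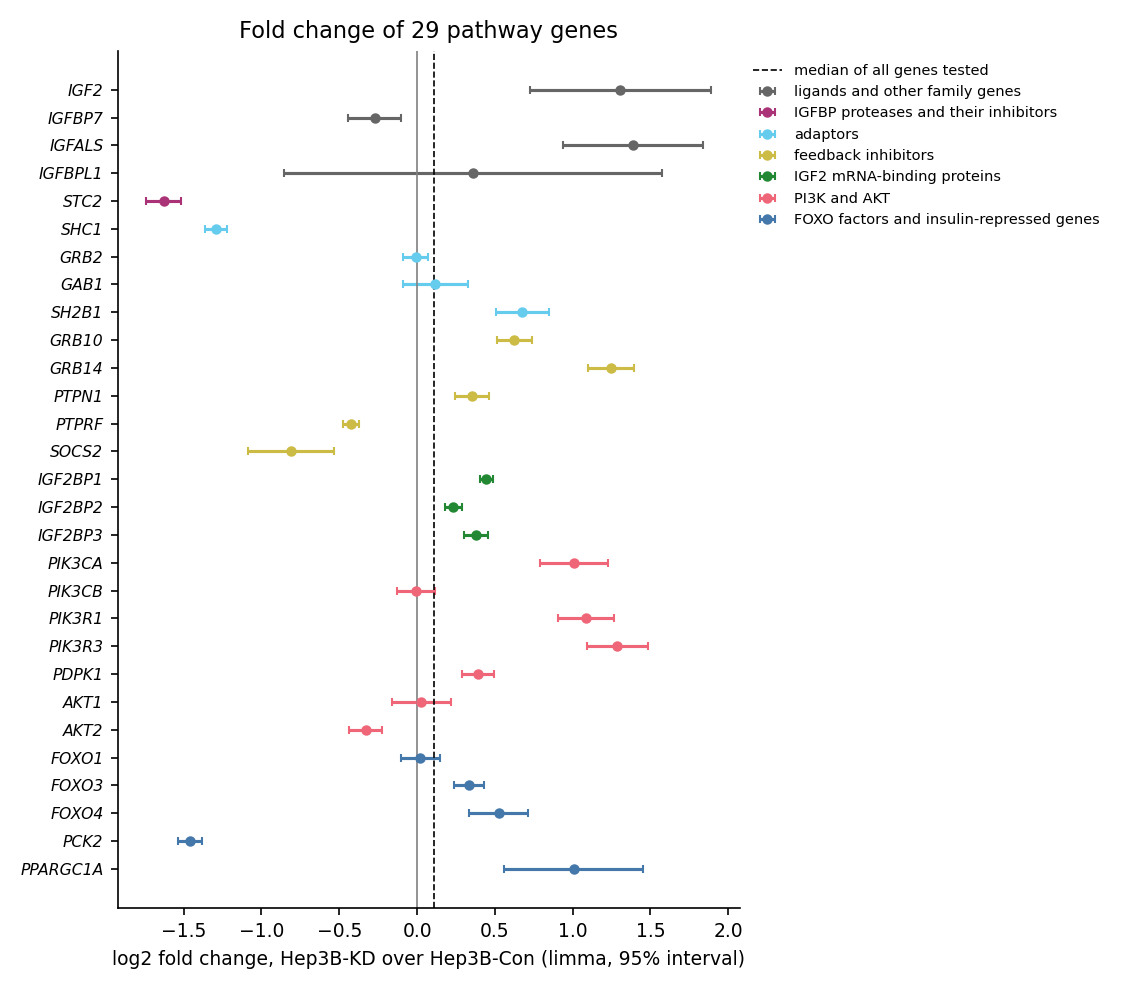
Log2 fold change of Hep3B-KD over Hep3B-Con (x axis) for the 29 tested genes of 7 pathway lists (y axis, coloured by list), with 95% intervals from limma (n = 3 libraries per group). The lowest genes are STC2, PCK2 and SHC1, the highest IGFALS, IGF2 and PIK3R3, and the dashed line marks the median of all genes tested, 0.11.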

How the data were processed

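The authors deposited FPKM values for 29908 Ensembl genes in 6 libraries; the table held 0 columns that could not be mapped to a sample. The libraries were made with a TruSeq kit. The submitters' processing notes name Bowtie2 2.0.6, TopHat2 2.0.12 and GRCh37. Library totals were inferred from the smallest value above 0 in each library. Multiplied by GENCODE release 29 (GRCh38) exon lengths and these totals, 100% of FPKM values above 0 came within 0.01 of a whole read. Lengths of a GRCh37 annotation were not tried, and the annotation used for counting is not given in the sources used here. Gene coordinates are from release 29. Whether reads were counted by strand is not stated, so overlapping antisense genes cannot be told apart.

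Genes averaging 0.5 FPKM or more over all libraries, 1 row per symbol, were tested with limma 3.58.1 (R 4.3.3, lmFit and eBayes with trend) on log2(FPKM + 0.1), which understates changes of low genes, with Benjamini-Hochberg adjustment. Intervals of pooled reads are exact binomial at 95%. The 10 genes, the pathway lists and the motifs were chosen with earlier results of these data known. Genes named in the text are these 10, DAGLA, the listed pathway genes and markers, and genes that overlap them. Some further genes of the pathway are not reported here and stay out of the counts.

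Seed matches were searched in the longest 3′ UTR among protein-coding transcripts near the longest coding sequence of a gene. Motifs were searched on both strands. Same-numbered libraries of both groups did not deviate together (correlations across genes of -0.008, -0.065 and -0.0009), so replicate numbers were not taken as pairs. Tables and figures were made in Python 3.11.15 with pandas 2.3.3, scipy 1.17.1 and matplotlib 3.10.9.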

Additional observations from a re-analysis of the deposited data

How the results depend on the processing

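Alternatives were other filters, pseudocounts and scalings, eBayes without the trend, voom on recovered reads, a replicate block, every row of a repeated symbol, and each library left out. IRS1, IRS2, IGF1R, IGFBP3, IGFBP4 and DAGLA kept direction and call in all 17. INSR had 0.10 with median centring and no longer passed, which left 1 of the genes called higher. IGF2R passed with median centring (-0.14) and voom (-0.039), and turned to 0.079 and passed with quantile normalization. The ratio of IGF1R to INSR in Hep3B-KD was 0.684 under quantile normalization. With a pseudocount of 1, 495 of all genes tested passed a fold change of 2 instead of 1249. The split of all calls moved from 5137 higher and 3392 lower to 4068 and 4308 with median centring. The replicate block gave 4783 higher and 3159 lower, kept 2 higher and 4 lower among the 10 genes and changed no call of theirs. Its adjusted p for IRS1 was 4.6e-04 and for IRS2 0.0028. Without Hep3B-KD replicate 3, IGFBP1 passed the filter (log2 change -0.22, limma adjusted p = 0.586). Of the 29 pathway genes tested, 23 kept sign and call in all alternatives that tested them. Depth limits IGFBP1, IGFBP2 and IGFBP6. The causes of these changes were not tested.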
